A study of Mus musculus with 2 samples.

Results

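The autosomal Pramel genes were described in peak lists from chromatin immunoprecipitation followed by sequencing (ChIP-seq) of mouse embryo heads. Members were all protein-coding genes on chromosomes 1 to 19 whose RefSeq symbol begins with Pramel. There were 45 of them among 20665 autosomal protein-coding genes. A gene was counted as having a peak where the summit, the highest point of a called peak, lay in the gene body or within 1 kb of either end. The family was selected on its library 1 peaks, which were already known, so its share of genes with a peak and its contrast with neighbouring sequence are descriptions, and no test was made on them.

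The series concerns histone H3.2 in the eye. Both libraries came from snap-frozen heads of E10.5 embryos, and the antibody used for precipitation recognises green fluorescent protein (GFP). The labels give no genotype, strain, sex, GFP-tagged protein, control or pooling of embryos, and no second condition, and the protein behind the signal is therefore unnamed here. Library 1 had 584724 called peaks and library 2 had 348, of which 576675 and 118 were on autosomes. The lists were described one by one and never averaged.

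Pramel genes encode leucine-rich repeat proteins related to PRAME, an antigen first found in human melanoma. Most are transcribed in testis, oocytes or the early embryo and are silent in body tissues. PRAMEL7 acts in mouse embryonic stem cells with a Cullin 2 ubiquitin ligase on UHRF1, the partner of the maintenance methyltransferase DNMT1. The family grew by tandem copying, so that neighbouring members resemble each other in sequence. Expression was not measured in these libraries.

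Promoter sequence separated Pramel1 from the rest of the family. RefSeq promoter windows on GRCm38.p6, which reach from 250 bases before to 50 bases after the annotated start, were matched for 36 of the 45 members. The unmatched members were Pramel12, Pramel18, Pramel34, Pramel36, Pramel41, Pramel42, Pramel44, Pramel47 and Pramel51. For Pramel22 the window (chr4:143657197-143657496) lies inside the gene body used for counting peaks (143653760 to 143660598), not at its end. The median window of a Pramel gene held 1 CpG dinucleotide, the site of DNA methylation in mammals, against 14 over all 16457 autosomal protein-coding genes with a window. The median GC content was 43.5% in Pramel genes, against 56.7% in all genes. Pramel1 had 20 CpG and a GC content of 60.0%, and it was the only one of the 36 windows with at least 10 CpG, against 58.5% of all windows. Pramel13 followed with 7 CpG, and the other 34 windows held 0 to 4. The 250 bases before the start are shown for the CpG-rich Pramel1, for Pramel13, for Pramel7 and for Pramel37, with every CpG in capitals, 5′ to 3′ on the gene's strand. They lie at chr4:143394191-143394440 (plus strand), chr4:144408465-144408714 (minus), chr2:87492419-87492668 (minus) and chr5:94070546-94070795 (minus).
Pramel1: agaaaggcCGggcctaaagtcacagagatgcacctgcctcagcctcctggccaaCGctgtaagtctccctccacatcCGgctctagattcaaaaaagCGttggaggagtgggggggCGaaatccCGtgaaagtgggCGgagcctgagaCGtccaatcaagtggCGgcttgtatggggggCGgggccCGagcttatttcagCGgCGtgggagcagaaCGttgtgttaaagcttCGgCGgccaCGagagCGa
Pramel13: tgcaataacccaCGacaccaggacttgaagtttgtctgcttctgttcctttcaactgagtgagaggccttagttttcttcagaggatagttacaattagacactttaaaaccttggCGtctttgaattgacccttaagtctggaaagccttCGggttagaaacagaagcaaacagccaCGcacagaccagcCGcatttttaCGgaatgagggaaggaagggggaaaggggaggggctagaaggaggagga
Pramel7: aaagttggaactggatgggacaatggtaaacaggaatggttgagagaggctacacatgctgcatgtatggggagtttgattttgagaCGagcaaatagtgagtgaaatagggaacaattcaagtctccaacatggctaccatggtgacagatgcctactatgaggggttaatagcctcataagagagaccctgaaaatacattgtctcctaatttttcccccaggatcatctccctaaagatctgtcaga
Pramel37: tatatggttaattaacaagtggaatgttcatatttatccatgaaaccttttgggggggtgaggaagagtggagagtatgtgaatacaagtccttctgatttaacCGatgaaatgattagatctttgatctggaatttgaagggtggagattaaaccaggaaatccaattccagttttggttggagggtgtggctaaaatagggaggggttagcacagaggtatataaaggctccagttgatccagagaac

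**Figure D1:**
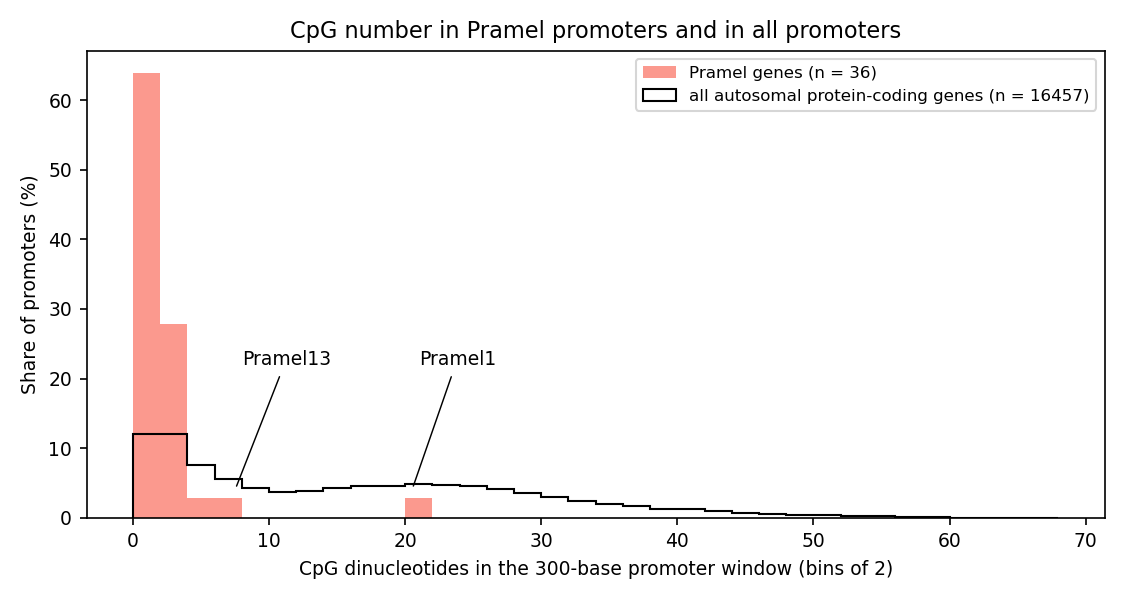
Share of promoter windows (vertical axis, %) by the number of CpG dinucleotides in 300 bases (horizontal axis, bins of 2), for 36 Pramel genes as filled bars and for 16457 autosomal protein-coding genes as a line. Pramel genes crowd at 0 to 4 CpG, with Pramel13 at 7 and Pramel1 at 20.

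Several chromosome 5 members had near-identical promoter windows, and gene bodies were not aligned. The windows of Pramel37 and Pramel50 were identical over 300 bases, those of Pramel33 and Pramel35 had 99.7% identity, those of Pramel46 and Pramel49 99.3%, and those of Pramel39 and Pramel43 98.7%. In all, 12 of 66 pairs on chromosome 5 reached 90% identity. In the large chromosome 4 cluster 1 of 171 pairs did, Pramel14 and Pramel30 with 97.3%. Of the 12 chromosome 5 windows, 8 had such a partner. Pramel38 and Pramel48 reached 86.8% with each other, and the nearest windows of Pramel45 and Pramel40 had 60.6% and 56.3%. Most pairs were not alike, with a median identity of 51.9% within the chromosome 5 cluster, 51.3% within the large chromosome 4 cluster and 51.4% between clusters. The next sequences show how alike the windows of such a pair are. Pramel33 lies at chr5:93536332-93536581 (minus strand) and Pramel35 at chr5:93794374-93794623 (plus), and the 1 base in capitals is where they differ. It is A108C, written as the Pramel33 base, the position counted from 1 at the first base shown, and the Pramel35 base.
Pramel33: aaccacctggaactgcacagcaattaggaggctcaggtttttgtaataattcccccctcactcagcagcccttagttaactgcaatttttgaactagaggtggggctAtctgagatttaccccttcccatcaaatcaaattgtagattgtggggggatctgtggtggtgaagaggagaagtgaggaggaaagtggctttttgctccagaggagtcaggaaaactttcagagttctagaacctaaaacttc
Pramel35: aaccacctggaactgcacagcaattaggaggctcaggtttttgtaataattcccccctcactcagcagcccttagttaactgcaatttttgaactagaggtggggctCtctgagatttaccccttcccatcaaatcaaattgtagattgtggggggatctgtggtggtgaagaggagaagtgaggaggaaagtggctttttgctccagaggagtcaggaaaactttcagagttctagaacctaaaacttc

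Short motifs, 3 in all, were looked for on both strands of the windows. CACGTG, the E-box bound by MAX and its partner MGA, and GGCGGGAA, a site of the E2F family, were found in 0 of 36 Pramel windows. They were in 7.96% and 2.92% of all windows. Both motifs contain a CpG, and 34 of the 36 Pramel windows held 0 to 4 CpG. The part of CpG content in their absence was not tested. TATAAA was in 12 Pramel windows (33.3%), of which 7 were among the 12 windows on chromosome 5, against 13.5% of all windows. Of those 7, 6 (Pramel37, Pramel39, Pramel43, Pramel46, Pramel49 and Pramel50) were 88.9% to 100% identical to one another, so the share counts copies of 1 sequence several times. No motif contains another, and a match is not a shown binding site.

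Many Pramel genes lacked a library 1 peak. The number with one was 24 of 45 (53.3%, 95% Clopper-Pearson interval 37.9 to 68.3), and the share over all autosomal protein-coding genes was 90.0%. The interval treats members as independent, although some have near-identical promoter windows or overlap each other, and it is not a test. A summit lay in the body of 20 members (88.4% of all genes), and a further 4 (Pramel23, Pramel25, Pramel29 and Pramel51) had summits only in the 1 kb outside. The largest distance of these was the 874 bp of Pramel23. Of the 21 members without a peak, Pramel22 was nearest to one, with a summit 1.88 kb away, and the median distance was 6.83 kb. The farthest were Pramel36 and Pramel49, with 21.0 and 21.1 kb. The median density over the gene and 1 kb on each side was 32.5 summits per Mb in Pramel genes, against 374 in all autosomal protein-coding genes. With peaks of −log10 q of at least 5 alone, 12 members had a peak, against 78.9% of all genes. In a wider window of 5 kb, 31 members had one, against 94.3%. By any overlap of a peak with the 1 kb window the count was again 24, against 90.1%.

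Library 2 held no peak at any of the 45 genes. This allows a share of up to 6.67%, taken as 3 counts over the 45 genes, for counting error alone. The library 2 share over all autosomal protein-coding genes was 0.150%, so none was detectable at this size of list. Within 5 kb the count was again 0, against 0.179% of all genes. There were also 0 library 2 summits in the 6 Pramel clusters and in the 1 Mb on either side of them.

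**Figure D2:**
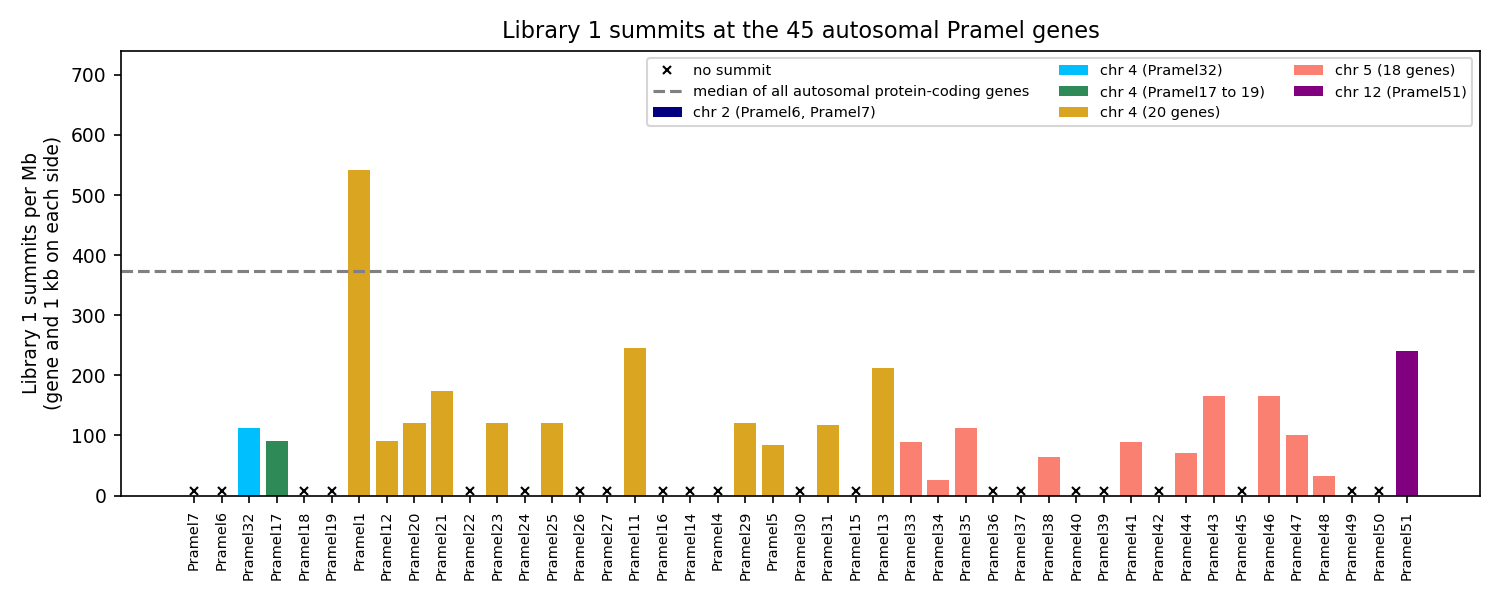
Library 1 summits per Mb over each gene and 1 kb on each side (vertical axis) for the 45 members in chromosome order (horizontal axis), coloured by cluster, with crosses for genes without a summit. The dashed line is the median of all autosomal protein-coding genes, 374 per Mb. Only Pramel1, at 542 per Mb, is above it.

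Short members carried the fewest peaks. Pramel genes had a median length of 6.31 kb, against 17.5 kb for all genes, and ran from the 2.70 kb of Pramel45 to the 60.7 kb of Pramel38. Of 16 members under 5 kb, 3 had a peak (18.8%), against 66.4% of all genes of that length. Of 17 members of 5 to 10 kb, 12 had one (70.6%), against 90.5%. Of 12 members over 10 kb, 9 had one (75.0%), against 97.9%. Summed over genes, densities in these classes were 33.5, 111 and 74.2 summits per Mb in Pramel genes, against 450, 540 and 314 in all genes.

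Peaks at annotated starts were scarcer still. Of the 36 members with an annotated start and strand, 3 had a summit within 1 kb of it (8.33%), against 69.3% of all genes with a window. They were Pramel1, Pramel23 and Pramel13. Among windows with 0 to 4 CpG, 1 of 34 members had such a summit (2.94%), against 44.7% of all genes. In the classes of 5 to 9 and of at least 10 CpG, where Pramel13 and Pramel1 were the sole members and each had one, the shares over all genes were 80.4% and 78.6%. Low CpG content and few peaks therefore occurred together over all genes, and the part of CpG content in the low Pramel share was not tested.

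The testis gene Pramel1 had the densest peaks of the family, with 4 summits in 7.4 kb or 542 per Mb (95% exact Poisson interval 148 to 1388). Its best peak covered chromosome 4, 143394182 to 143394586, with the summit at −198 bp from the start, inside the promoter printed above. The authors' fold enrichment there was 4.48, and the pileup, the number of overlapping extended reads at the summit, was 16 (9.15 to 26.0). The other 3 summits lay 311, 652 and 2670 bp into the gene, with folds of 3.23 to 3.77. No other member with a matched promoter window had a summit in it. Pramel13, known also as Pramef12 and needed for the germ line stem cells of the mouse testis, had 4 summits too, or 213 per Mb (58.0 to 545) over the gene and 1 kb on each side. The first lay at −657 bp from the start with a fold of 2.69, and the others 3.91, 12.6 and 15.8 kb into the gene with folds of 2.75 to 4.04. These genes form the first and the last member of the large chromosome 4 cluster.

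Members of that cluster between Pramel1 and Pramel13 had 0 to 2 summits each. Single peaks lay in Pramel12 (fold 4.58), Pramel20 (2.96), Pramel21 (3.46), Pramel5 (2.69) and Pramel31 (4.85), and Pramel11 had 2 (3.50 and 4.04). Outside the body were the single peaks of Pramel23 (5.66, at −874 bp from its start), Pramel25 (2.52) and Pramel29 (4.31). Both of the last named followed the end of the gene. The peak beside Pramel23 was the strongest of this cluster's members, with a pileup of 20 (12.2 to 30.9), and 7.42% of autosomal peaks had at least its fold. The 9 members without a peak were Pramel22, Pramel24, Pramel26, Pramel27, Pramel16, Pramel14, Pramel4, Pramel30 and Pramel15.

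The strongest peaks of the family lay inside the long chromosome 5 genes. Of the 10 members over 10 kb there, 8 had a peak, against 97.9% of all autosomal protein-coding genes of that length. All but Pramel40 and Pramel42 together carried 29 summits. Pramel35 had 7 summits in 60.7 kb, and the strongest covered chromosome 5, 93826954 to 93827205. Its fold was 8.95, with 38 reads piled up at the summit (26.9 to 52.2). Only 0.0179% of autosomal peaks had at least that fold. Pramel33 had 5 summits, with a best fold of 7.002 and a pileup of 25 (16.2 to 36.9). Pramel34 had a single peak with the same fold and pileup, and 0.845% of autosomal peaks had at least this fold. Pramel47 had 4 summits and a best fold of 6.88 with a pileup of 29 (19.4 to 41.6). Pramel38 had 4 with a best fold of 5.20, Pramel41 had 4 with 4.04, Pramel44 had 3 with 3.77 and Pramel48 had 1 with 3.50.

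Of these 8 genes, 4 have an annotated start and strand, and their summits were far from it. In Pramel33, Pramel35, Pramel38 and Pramel48 the summits nearest to the start lay 13.1, 10.05, 13.1 and 13.4 kb into the gene. For Pramel34, Pramel41, Pramel44 and Pramel47 no distance from a start could be given. Pramel33 and Pramel38 had summits at nearly the same distances from their starts. The pairs were 25977 and 25979 bp, 23036 and 22919 bp, and 13140 and 13084 bp, with Pramel33 first. At the closest pair the pileups were 33 and 26, and the local backgrounds of the caller were 6.72 and 4.20 extended reads, against the commonest background of 2.71. The Pramel35 summit at 29374 bp lay 151 bp from the matching place of one in Pramel33, at 29223 bp. Pairs were sought within 200 bp, a limit chosen after the values were seen. Promoter identity was 75.1% between Pramel33 and Pramel38. It was 99.7% between Pramel33 and Pramel35, for which no further pair of summits was found.

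**Figure D3:**
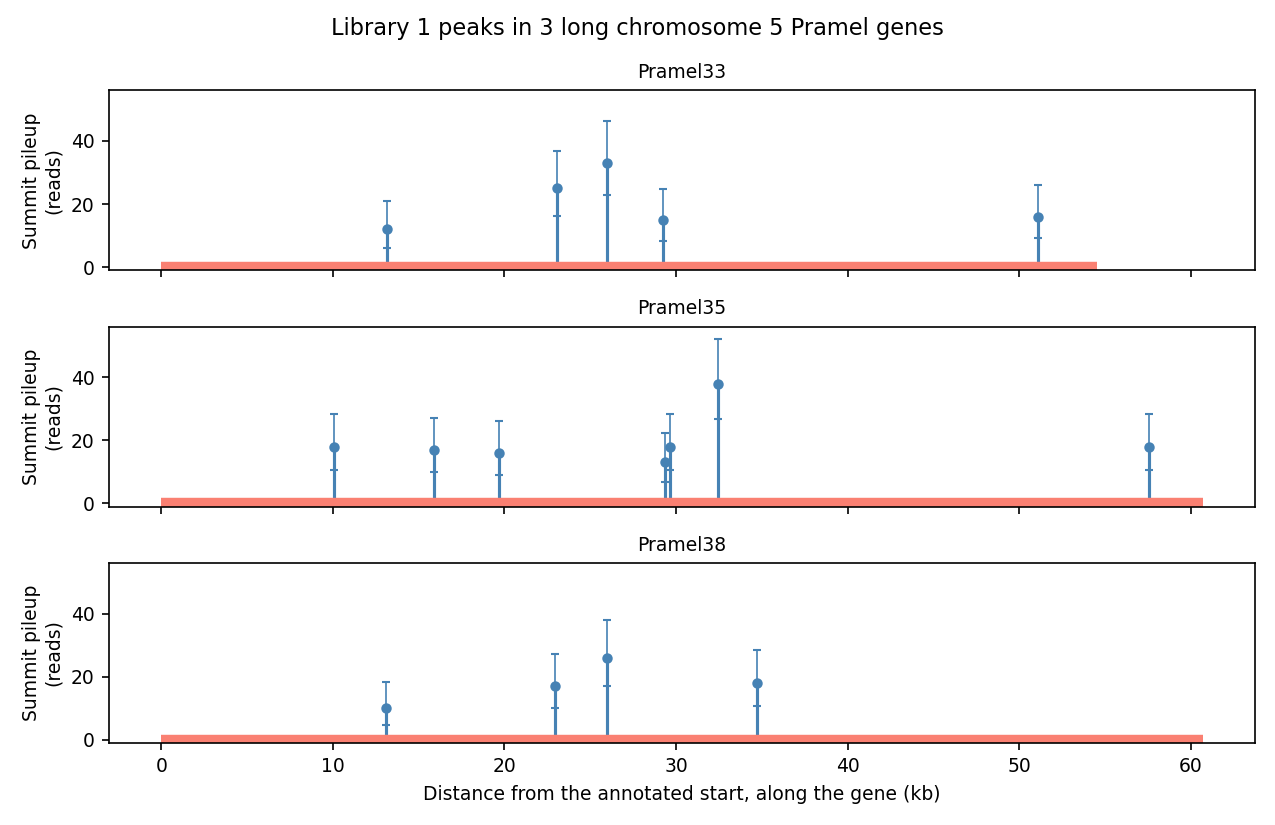
Library 1 summits in Pramel33, Pramel35 and Pramel38 by distance from the annotated start in kb (horizontal axis) and by summit pileup in reads (vertical axis), with 95% exact Poisson intervals and the gene drawn as a bar. The tallest summits are at 26.0 kb in both Pramel33 and Pramel38 (33 and 26 reads) and at 32.5 kb in Pramel35 (38 reads).

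Of the 8 short chromosome 5 members, between 2.70 and 4.28 kb long, 2 had a peak. Pramel46 had one of fold 4.31, and Pramel43 one of fold 2.96. Pramel43 lies inside Pramel44 and shares that peak with it, and Pramel46 lies inside the gene model Gm6468. Pramel39 lies inside Pramel40, and neither had a peak. Nor had Pramel36, Pramel37, Pramel49 and Pramel50, each inside a longer gene model, or Pramel45. Members with promoter windows of at least 90% identity were alike in some cases and differed in others. Pramel43 and Pramel46, with 91.4% promoter identity, had summits at 1367 and 1283 bp from their starts. Pramel49, with 99.3% promoter identity to Pramel46, had none within 21.1 kb. How reads from near-identical sequences were placed is not given in the sources used here, so the share of peaks lost or misplaced between such sequences was not tested.

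The remaining members lie in small groups. Pramel6 and Pramel7, which support the naive state of mouse embryonic stem cells, had no peak, and the nearest summits were 8.99 and 2.58 kb away. Pramel32 had 1 peak of fold 2.96 and Pramel17 1 of fold 4.04, both in the body. Pramel18 and Pramel19 had none. Pramel51, alone on chromosome 12, had a peak of fold 4.31 below its lower end (88174767 to 88175228) and one of fold 4.04 above its higher end, and none in between.

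The 52 distinct peaks of the family had folds and pileups close to those of the whole list. Their median fold was 4.04 (range 2.52 to 8.95), against 3.90 for all autosomal peaks, and the median pileup was 14 reads, against 15. The 43 in gene bodies and the 9 outside were 119 to 659 bp wide with a median of 184 bp, against 201 bp. Of the 52, 40 were called against the commonest background.

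Members were joined into a cluster where neighbours lay at most 1 Mb apart, which gave 6 groups, 2 of them single genes. The sequence around the members was also poor in peaks in the largest clusters. The chromosome 4 cluster of 20 genes (143394441 to 144408467, 1.01 Mb) held 124 summits or 122 per Mb (95% interval 102 to 146), against 288 per Mb (264 to 312) in its flanks of 1 Mb on each side. The ratio was 0.425 (0.347 to 0.517). The chromosome 5 cluster of 18 genes (93481827 to 95736173, 2.25 Mb) held 195 summits or 86.5 per Mb (74.8 to 99.5), against 228 (207 to 249). The ratio was 0.380 (0.320 to 0.451). Each was below both of its flanks, which had 361 and 214 summits per Mb on chromosome 4 and 283 and 172 on chromosome 5, lower side first. Among 2393 windows of 1 Mb over the autosomes, with a median of 174 summits, 38.0% had a lower density than the chromosome 4 cluster and 24.1% a lower one than the chromosome 5 cluster. Densities of this size were thus common elsewhere.

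**Figure D4:**
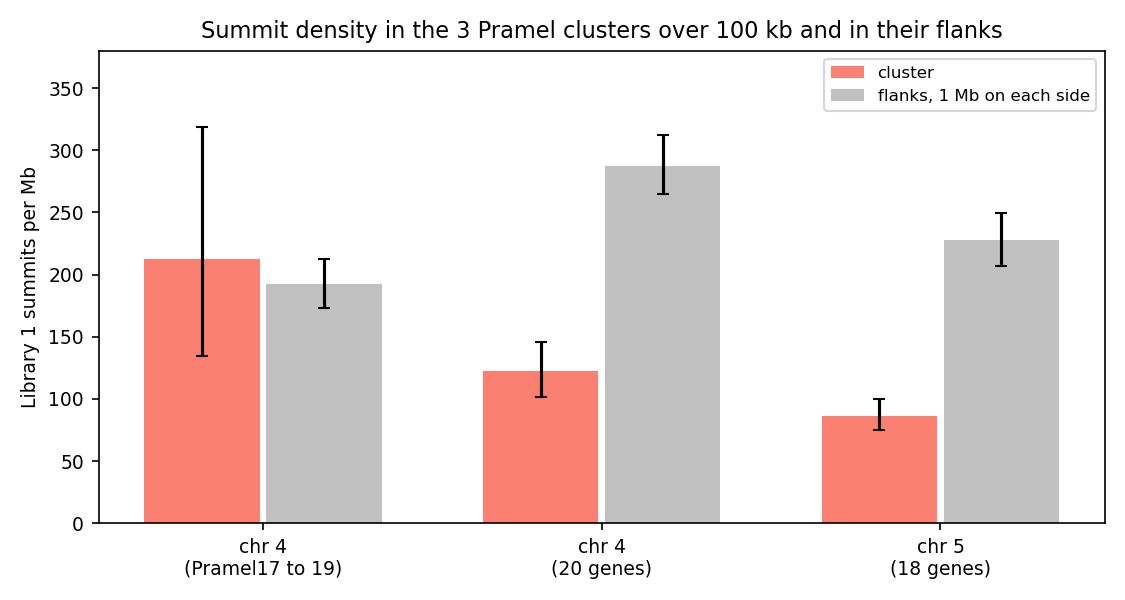
Library 1 summits per Mb (vertical axis) in the 3 multi-gene clusters longer than 100 kb and in their flanks of 1 Mb on each side, with 95% exact Poisson intervals of counting error. The clusters of 20 and 18 genes (122 and 86.5 per Mb) lie below their flanks (288 and 228), and the interval of the Pramel17 to Pramel19 cluster overlaps that of its flanks.

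The values of the smaller groups showed no such contrast. The cluster of Pramel17, Pramel18 and Pramel19 held 23 summits in 108 kb, or 213 per Mb (135 to 319), against 192 (173 to 212) in its flanks, a ratio of 1.11 (0.693 to 1.69). Of these summits 1 was in a member and 7 were at the uncharacterised gene model Gm52666 between Pramel17 and Pramel18, whose best fold was 7.27. The Pramel6 and Pramel7 group held 2 summits in 21.8 kb (ratio 1.39, 0.167 to 5.13), amid flanks of olfactory receptor genes with 66.0 per Mb. Pramel32 held 1 in 6.87 kb (ratio 1.07, 0.0271 to 6.04). Pramel51 held none in 6.31 kb (ratio 0, upper bound 3.80). The last 3 are too short for these counts to show a difference. Taken over all 6 groups, the density was 101 per Mb in 3.41 Mb, against 177 in 12 Mb of flanks, a ratio of 0.571 (0.508 to 0.640).

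Sequence between the genes had more summits per Mb than the bodies of members. No density between genes was computed outside the clusters. Over all clusters, the bodies of members held 43 summits in 589 kb (73.0 per Mb), other annotated genes 43 in 442 kb (97.4 per Mb), and the sequence between genes 259 in 2380 kb (109 per Mb). On chromosome 5 these densities were 69.6, 61.6 and 96.9 per Mb, and in the large chromosome 4 cluster 87.2, 143 and 126. No intervals were computed for these densities, and the 87.2 per Mb rests on 12 summits. The longest stretch without a summit was 88.2 kb on chromosome 5, from 94055416 to 94143570, and 37.4 kb in the large chromosome 4 cluster, from 143533747 to 143571099. Assembly gaps were not excluded from any span, and their part in these stretches was not tested.

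The count stepped down at the lower edge of the chromosome 4 cluster, and at the other edges the low counts went on outside the clusters. On chromosome 4 the 100 kb below Pramel1 held 48 summits and the first 100 kb of the cluster 23, and the next 100 kb held 6. Beyond Pramel13, bins stayed at 7 to 15 summits for 400 kb, through genes of the Aadacl family, and the bins after them held 20 to 47. On chromosome 5 the bins thinned out before the first member, with 14, 13 and 8 summits in the last 300 kb of the lower flank and 35 before them. Above the last member they held 7 to 18 until 26 at 2700 kb from the cluster start. Inside the clusters, 100 kb bins held a median of 8.5 summits (6 to 23) on chromosome 4 and 8 (3 to 18) on chromosome 5, against 28.5 (7 to 48) and 18.5 (7 to 53) in the flanks.

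**Figure D5:**
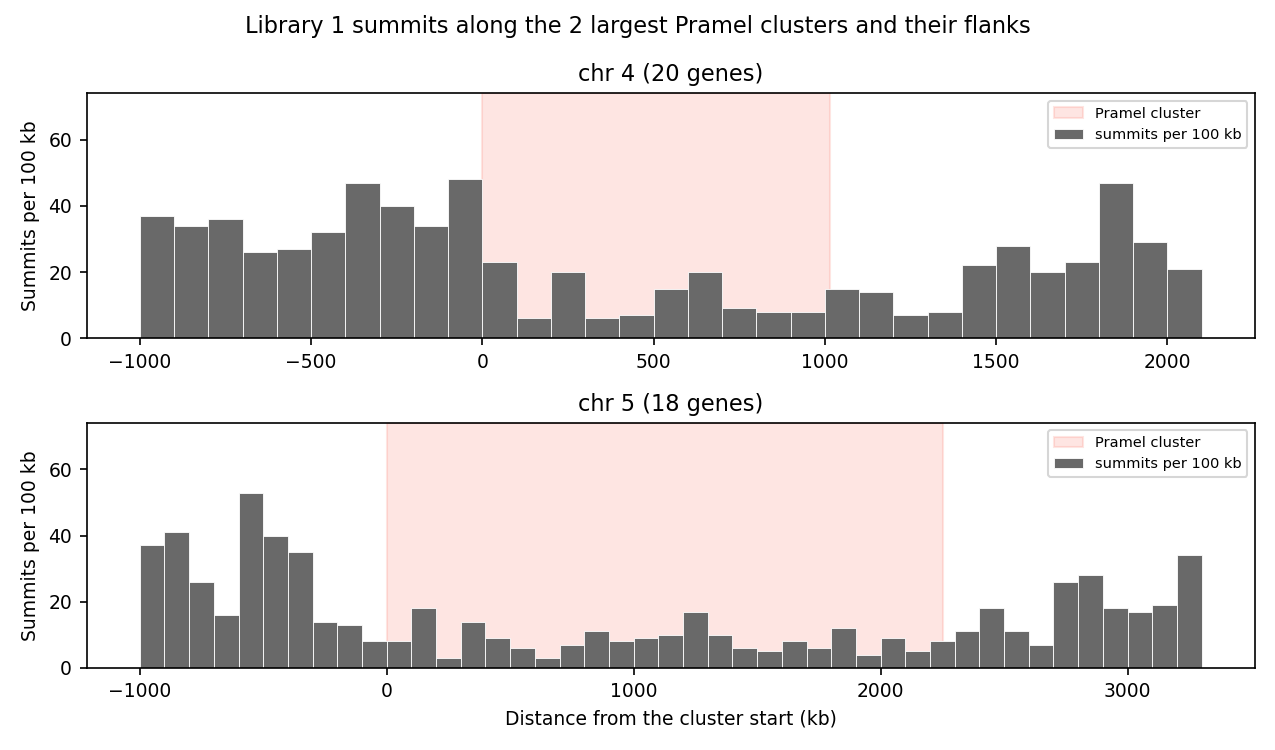
Library 1 summits per 100 kb (vertical axis) by distance from the cluster start in kb (horizontal axis) for the chromosome 4 cluster of 20 genes and the chromosome 5 cluster of 18 genes, shaded, with 1 Mb on each side. On chromosome 4 the count steps down at Pramel1, and on chromosome 5 the low counts begin before the cluster and go on after it.

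Peaks called inside the large clusters had median folds at or above those of the flanks. In the large chromosome 4 cluster the median fold was 4.04 and 49.2% of peaks had a −log10 q of at least 5, against 3.77 and 35.1% in the flanks. On chromosome 5 the median fold was 4.04 in the cluster and 4.04 in the flanks, and the shares with that −log10 q were 51.3% and 44.2%. The median pileup was 15 in both clusters, against 14 in the chromosome 4 flanks and 15 in the chromosome 5 flanks.

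Values at neighbouring genes varied. The membrane protein gene Lrrc38, next to Pramel1, had 12 summits or 462 per Mb, and 1700012P22Rik, next to Pramel13, had 5 or 221 per Mb. Ccng2, a cyclin gene below the chromosome 5 cluster, had 3 or 281 per Mb, and E330014E10Rik above it had 2 or 65.9 per Mb, fewer than the 86.5 of the cluster itself. The leptin receptor gene Lepr, below Pramel17, had 12 summits and a best fold of 8.89, and Gm12790 above Pramel19 had 2. A peak was found at 11 of 20 members in the large chromosome 4 cluster, against 11 of 15 protein-coding genes in its flanks. On chromosome 5 it was found at 10 of 18 members, against 15 of 16 flanking genes. At Pramel6 and Pramel7 there was none, against 4 of 86 flanking genes, and the nearest, Olfr1126 and Olfr153, had none. In the group of Pramel17, Pramel18 and Pramel19 it was found at 1 of 3 members, against 11 of 11 flanking genes. Pramel32 and Pramel51 each had a peak, as had 23 of 38 and 16 of 30 genes in their flanks. Over all groups together, 80 of 196 flanking genes had one (40.8%), below the 53.3% of members, and 86 of the 196 were those around Pramel6 and Pramel7. Beside Pramel32, Ifna12 had 1 and Ifna13 none, and Gm5955 and Gm5662 beside Pramel51 had none.

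Other genes inside the large clusters had few peaks too. The oogenesin genes, oocyte genes of the same protein family, had 2 summits at Oog4 (best fold 5.92), 1 at Oog3 (4.31) and none at Oog2, all in the large chromosome 4 cluster. Oog1, on chromosome 12 in the lower flank of Pramel51, had 1 (4.85). Of 7 further protein-coding genes in the chromosome 4 cluster, these included, 2 had a peak, and Gm13040, Gm13043 and Gm13057 had none. On chromosome 5, 5 of 11 had one. Gm7982 (60.3 kb) had 7 summits with a best fold of 6.65, Gm6351 (60.5 kb) had 5 with 5.66, and Gm3286, Gm6468 and Gm16513 had 1 each with 4.58, 4.31 and 2.96. The Gm6468 summit is the one given above for Pramel46, so this gene counts among the 5 through the peak of a member.

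Genes that act with PRAMEL7, and listed genes of DNA methylation, pluripotency, the oocyte and the germ line, mostly had peaks, as most genes did. All 6 genes of the PRAMEL7 ligase and UHRF1 axis had one, with a median of 292 summits per Mb and the best fold, 6.73, at Dnmt1. The maintenance partner Uhrf1 had 20 summits. All 7 genes of de novo methylation and of methylation removal had one (median 521 per Mb), led by the de novo methyltransferase gene Dnmt3b with a fold of 7.81. So had all 13 genes of naive pluripotency (489 per Mb, Esrrb 6.73). Of 20 oocyte genes, which include the 4 oogenesin genes (Oog2, Oog3 and Oog4 lie in the large chromosome 4 cluster), 18 had one (540 per Mb, Lhx8 7.002), and Ooep and Oog2 did not. All 14 autosomal germline genes known to be silenced by DNA methylation had one (184 per Mb, Stra8 7.27). Of 12 repressors of germline genes, 11 had one (233 per Mb, Ehmt1 6.46), and the heterochromatin protein gene Cbx3 did not. These counts stand beside the 90.0% and the median of 374 per Mb over all autosomal protein-coding genes. They were not matched for gene length, and 97.9% of all genes over 10 kb had a peak.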

How the data were processed

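Peaks were deposited as 1 narrowPeak list per library. Per the submitters' processing notes, bcl2fastq 2.17, Trimmomatic 0.33, Bowtie 1.1.2 and MACS2 2.1.0 were used; builds hg38 and mm10 are named without roles, and settings are not given in the sources used here. Both lists use mouse positions, and coordinates here are mm10, counted from 1. Each deposited peak has a score, which is the whole-number part of 10 times its −log10 q. The authors' fold enrichment is a ratio of summit to background. Their p-value and q-value are deposited on the −log10 scale. These describe peaks within a list.

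The whole summit pileup and local background were solved from the authors' fold and −log10 p-value. A whole pileup fitted 100% of peaks within 0.002 on the −log10 scale. Read depth is not given. PCR duplicates and repeat mapping are unknown, so intervals cover counting error only.

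Genes and promoters came from RefSeq tables of GRCm38.p6. Analysis used Python 3.11.15, scipy 1.17.1 and Biopython 1.88 (global alignment, match 2, mismatch −1, gap open −3, gap extension −1). Density ratios have exact binomial intervals, and the counting was checked on simulated peaks. Groups: both libraries form 1 group. Members and gene lists were chosen with earlier results of these data known. All members are named. Among other genes, those named were the nearest protein-coding neighbours of each cluster, up to 5 inside it with the highest fold, the oogenesin genes, and per list the gene with the highest fold and those without a peak. Further genes (Uhrf1, the Aadacl family) were named after their values were seen. The alternatives were another gene window, flank, joining gap, q threshold and overlap rule.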

Additional observations from a re-analysis of the deposited data

How the results depend on the processing

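No result with a clear direction turned. The number of members with a library 1 peak was 20 with gene bodies alone, 31 within 5 kb, 24 by any overlap and 12 with −log10 q of at least 5. Leaving out 1 library gave 0 to 24 members with a peak in either list, since library 2 had none, and library 2 had 0 within 5 kb too. The ratio of the large chromosome 4 cluster over its flanks was 0.338 with 2 Mb flanks and 0.596 with the stricter q. That of the chromosome 5 cluster was 0.506 with 0.5 Mb flanks, and 0.541 for the last 6 members when genes were joined over at most 250 kb. For all groups together it was 0.501 with 2 Mb flanks and 0.728 with the stricter q. Pramel32 had a ratio of 0 with the stricter q, since its 1 summit was lost. The cause of the other changes was not tested. The share of the listed pathway and germline genes with a peak was 95.8%, and 88.9% to 98.6% under the alternatives. Ratios over bases other than N were not run, as no genome was used here. No paired analysis was possible because both libraries belong to 1 group and no test was made.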

Other observations

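Pramel genes outside the autosomal protein-coding set were looked at in the same way. The X-linked genes Pramel and Pramel3, and Prame, the mouse gene named like the human melanoma antigen, had 0 summits in either library within 1 kb. The chromosome 4 pseudogene Pramel28 had 1 in library 1.

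The numbering of the library 1 peaks skipped 5 numbers within the chromosome 5 cluster and 0 within the large chromosome 4 cluster, against 2806 (0.478%) of 587530 over the whole list. The peaks behind those numbers were not analysed here.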
